A study of Mus musculus with 4 samples.

Results

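Haemoglobin and iron-handling genes were followed in mouse brain slices on spatial arrays before and after a photothrombotic (PT) cortical injury. The set held 10 of the 32285 genes in the count tables: the adult β-globin genes Hbb-bs and Hbb-bt, the α-globin genes Hba-a1 and Hba-a2, and 6 iron-handling genes, Hmox1, Ftl1, Fth1, Tfrc, Slc40a1 and Cp. They had been listed with their levels per slice in these data already known, in spots rich in the collagen gene Col1a1 and in spots without it, so those levels are a description and not an independent test. All 10 genes were detected in every slice.

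The arrays were 10x Genomics Visium slides, on which polyadenylated RNA from a section is captured on a grid of barcoded spots. The study asked how fibrosis develops around a cortical lesion made by light over the primary somatosensory cortex after Rose Bengal, a dye that clots vessels when lit. Wild-type mice were sampled at rest and at 2, 7 and 21 days post-injury (dpi), with 1 mouse at rest, 1 at 2 dpi, 2 at 7 dpi and 2 at 21 dpi, 1 slice per mouse. A further 2 mice at 21 dpi, called deleter here, carried Cthrc1(creER); R26(DTA), in which a tamoxifen-activated Cre under Cthrc1 control is meant to turn on diphtheria toxin A. The authors set these deleter mice aside after clustering because the deletion could not be detected, so the genotype is not known to have removed any cells. The methods give an age of 7 to 21 weeks and both sexes for mice in general and do not give the age or sex of each mouse here. Tamoxifen dosing of the spatial mice is likewise not given in the sources used here.

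Globins are the protein chains of haemoglobin and are made by red cell precursors; young circulating red cells still carry their mRNA. When red cells break down in tissue, haem is opened by haem oxygenase, and the iron that is set free is stored in ferritin or sent out of the cell by ferroportin with the help of a ferroxidase. Macrophages do most of this work in the body, and in the brain microglia and oligodendrocytes are also known for their iron stores.

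The 4 capture areas each held 2 connected pieces of tissue, taken as 8 slices of 827 to 1726 spots with 11332780 to 23677298 UMIs (unique molecular identifiers, 1 per captured RNA molecule). Rest and 2 dpi shared 1 area, and the labels do not say which piece is which; the smaller piece, of 1017 spots, was taken as rest by its outline and not by its expression. Every other group had an area of its own, so time or genotype and capture area cannot be told apart. The slices also differed in Xist, the RNA of the inactive X chromosome. It had 1118 UMIs at rest, 1013 at 2 dpi and 1597 and 1281 in the 7 dpi slices. The 21 dpi slices had 4 and 1, and the deleter slices 1033 and 19. In wild-type mice sex, as read from Xist, therefore cannot be told apart from 7 against 21 dpi. The median depth was 12447 to 16158 UMIs per spot in 7 slices and 2633.5 at 2 dpi, where 21.7% of spots held under 1000 UMIs. Neuron markers summed to 24.0 to 45.9 and oligodendrocyte markers to 62.9 to 113 UMIs per 10000 in every slice. The areas shared 1564 to 1959 spot barcodes pairwise, because the arrays are printed with the same barcode set.

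Matches to the letters of a known iron-linked RNA element in the ferritin genes and Tfrc are shown first. Iron regulatory proteins are known to bind a hairpin, the iron-responsive element, in the 5′ untranslated region of ferritin mRNAs, where they hold back translation, and in the 3′ untranslated region of Tfrc mRNA, where they slow its decay. The letters of its loop and bulge, CNNNNNCAGTGN, were searched on the transcript strand of the untranslated regions of the main transcripts in GENCODE M21 (GRCm38). Sites are printed as 30 bases, 5′ to 3′, with the 12 matched letters in capitals. The 5′ sites of Fth1 (exon 1 of 4, chr19:9982729-9982758, + strand) and Ftl1 (exon 1 of 4, chr7:45459781-45459810, − strand) share the first 11 of those letters. Tfrc had 5 matches, all in exon 19 of 19 on the + strand, at chr16:32631216-32631245, chr16:32631595-32631624, chr16:32631642-32631671, chr16:32631660-32631689 and chr16:32631707-32631736, with the windows of sites 3 and 4 overlapping.
Fth1 5′ site: ggtttcctgCTTCAACAGTGCttgaacgga
Ftl1 5′ site: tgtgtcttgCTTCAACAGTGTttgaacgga
Tfrc site 1: gataattatCGGAAGCAGTGCcttccataa
Tfrc site 2: tcacattatCGGGAGCAGTGTcttccataa
Tfrc site 3: agtttttgcCTACCACAGTGTctatatcgg
Tfrc site 4: tgtctatatCGGAGACAGTGAtctccatat
Tfrc site 5: cgtaattatCGGGAACAGTGTttcccataa
The letters alone were common. They stood in 8.208% of 41462 5′ untranslated regions and in 28.98% of 41776 3′ untranslated regions, and 0.4955% of the latter held at least 5. Fth1 also had 1 match in its 3′ untranslated region (chr19:9984970-9984999), and the Cp transcript had none in either region. The search did not ask for the paired stem of the hairpin. In Tfrc site 3 the letters on the sides of the loop, TACCA and ctata, are not complementary, so its match is one of letters only. A match is a description of the letters and not evidence of a hairpin or of binding.

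The 4 globin genes lie in clusters on chromosomes 7 and 11, Hbb-bs at chr7:103826534-103828096 and Hbb-bt at chr7:103812524-103813996 on the − strand, Hba-a1 at chr11:32283511-32284465 and Hba-a2 at chr11:32296489-32297298 on the + strand (GRCm38). The 100 bases from 120 to 21 before each RefSeq start (GRCm38.p6) are shown on the gene's strand. CCAAT and CACCC, motifs known from globin promoters, are in capitals. The windows span chr7:103827949-103828048, chr7:103813944-103814043, chr11:32283552-32283651 and chr11:32296372-32296471. The gene spans above come from GENCODE M21, and their ends differ from the RefSeq starts. The windows of Hbb-bs and Hba-a1 therefore lie inside those spans, and that of Hbb-bt overlaps its span.
Hbb-bs promoter: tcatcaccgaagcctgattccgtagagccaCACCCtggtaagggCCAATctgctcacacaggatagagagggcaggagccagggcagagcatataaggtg
Hbb-bt promoter: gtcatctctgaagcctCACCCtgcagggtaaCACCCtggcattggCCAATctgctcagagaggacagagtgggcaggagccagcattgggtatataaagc
Hba-a1 promoter: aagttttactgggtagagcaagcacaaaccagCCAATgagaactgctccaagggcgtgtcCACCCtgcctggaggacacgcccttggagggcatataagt
Hba-a2 promoter: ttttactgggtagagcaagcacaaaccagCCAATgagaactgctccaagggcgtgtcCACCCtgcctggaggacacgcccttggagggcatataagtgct
Counted to the first letter of the motif, CCAAT began 76, 75, 88 and 91 bases before the start of Hbb-bs, Hbb-bt, Hba-a1 and Hba-a2. CACCC lay upstream of CCAAT in the β genes, at 90 in Hbb-bs and at 104 and 89 in Hbb-bt, and downstream of it in the α genes, at 60 and 63. Of 32851 promoters in the table, 10.1% held CCAAT and 13.8% held CACCC on the gene's strand of the same stretch, and 19.2% and 27.4% held them on either strand. The reverse complement ATTGG occurred a further 2 times in Hbb-bt and in none of the other 3 windows, and GGGTG, the reverse complement of the other motif, in none of the 4. The table held a promoter for 8 of the 10 genes. These motifs are a description of the letters, and their link to the globin levels in these slices was not tested.

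The gene pairs are nearly identical. The coding sequences of Hba-a1 and Hba-a2 matched at 428 of 429 bases and their 3′ untranslated regions at 74 of 74 aligned bases, whereas those of Hbb-bs and Hbb-bt matched at 443 of 444 and 93 of 129. Many reads therefore fit both members of a pair, most of all for the α genes, and the counting may leave such reads out. The summed level of the 4 genes is given beside the single ones, but it does not restore reads that were left out. Ftl1 has a processed copy, Ftl1-ps1, with 0.0306 to 0.278 UMIs per 10000 over whole slices, which may hold a small part of its reads.

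Globin RNA was highest in the slice at rest. Levels are UMIs per 10000 UMIs of the spots summed, in the order rest, 2 dpi, 7 dpi slices 1 and 2, 21 dpi slices 1 and 2, and deleter slices 1 and 2. Hbb-bs stood at 10.8, 1.29, 1.88, 1.87, 2.51, 5.05, 2.10 and 0.419. The 4 globin genes together stood at 18.9, 2.29, 3.09, 3.51, 4.44, 8.98, 3.83 and 0.776. The slice at rest was above every injured slice, and among injured slices the 21 dpi slice 2 was highest and the deleter slice 2 lowest. With 1 slice each, rest (95% exact Poisson interval 18.7 to 19.1) and 2 dpi (2.21 to 2.38) had no replicate check, and these intervals cover counting error only. Hbb-bt ran from 0.0794 to 2.01, Hba-a1 from 0.157 to 3.42 and Hba-a2 from 0.120 to 2.70, each with its extremes in the deleter slice 2 and at rest. The balance of chains moved less than the level: 1.67 to 2.51 UMIs of the 2 β genes were counted per UMI of the 2 α genes. This ratio would be too high if the counting left out more reads of the α genes, which are more alike. The methods flush the vessels of brains meant for imaging with saline before fixation. They give the spatial brains the same handling except that paraformaldehyde was left out and the brains were frozen unfixed. By that wording the saline flush was kept, though it is not restated.

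**Figure D1:**
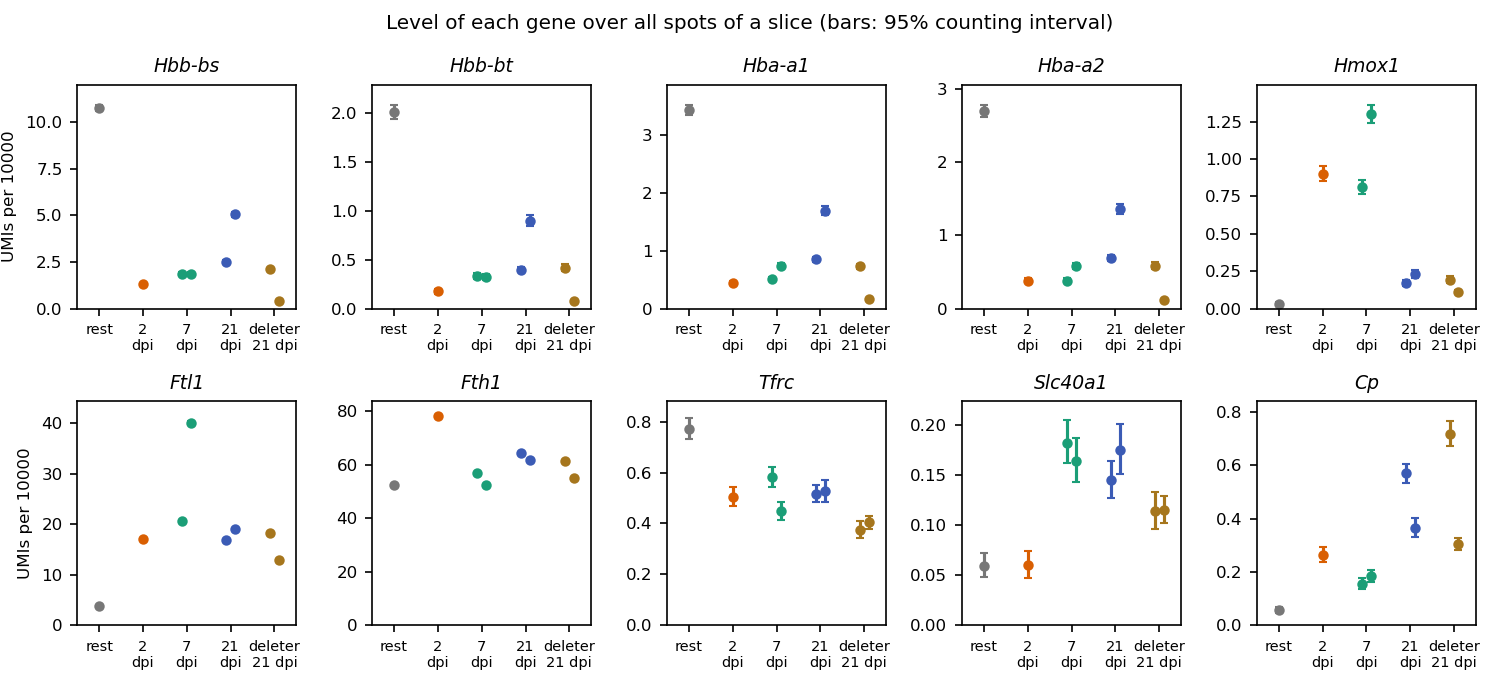
UMIs per 10000 of each of the 10 genes over all spots of a slice, on a linear axis from 0, with 1 point per slice and bars for the 95% exact Poisson interval, which covers counting error only. The 4 globin genes share an order, highest at rest and lowest in the deleter slice 2, while Hmox1 and Ftl1 are lowest at rest and highest in the 7 dpi slice 2.

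Globin RNA was packed into few spots. In each slice the 5% of spots with the most globin UMIs held 58.6% to 88.8% of them, against 14.8% to 24.1% for Fth1 counted in the same way and 9.11% to 19.2% of all UMIs for the deepest 5% of spots. At rest the share was 64.0% for the globins, 19.5% for Tfrc and 12.1% for Ftl1. It was 100% for Hmox1, 81.1% for Cp and 63.5% for Slc40a1, which were sparse there. A low count alone raises this share, so a high value is not particular to the globins. Single spots reached up to 1105 globin UMIs and up to 673 per 10000 at rest, where the median spot held 1.52 per 10000. In the 2 dpi slice, the 21 dpi slice 1 and both deleter slices the median spot held none. The map of the slice at rest showed scattered single spots together with a band along the upper edge of the piece.

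**Figure D2:**
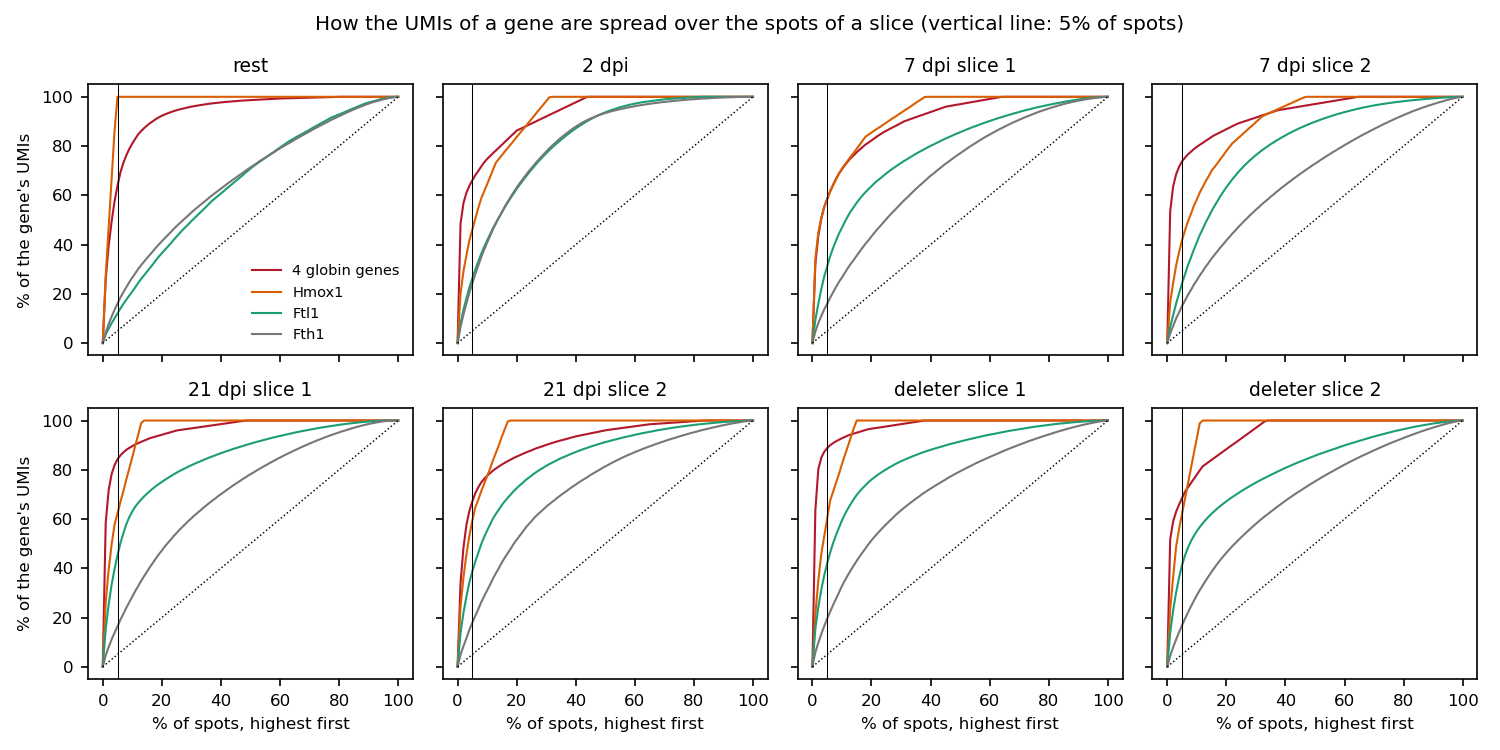
Share of a gene's UMIs (vertical axis, percent) held by the given share of spots, ordered from the richest (horizontal axis, percent), for the 4 globin genes, Hmox1, Ftl1 and Fth1 in each slice. The globin curves climb steeply, with 58.6% to 88.8% of UMIs in the first 5% of spots, and the Fth1 curves lie far lower, at 14.8% to 24.1%.

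The spots with the most globin also held the transcripts of immature red cells. Alas2, the haem-making enzyme made in red cell precursors, had 253 UMIs in all slices, and 180 of these (71.1%) fell in the 470 top globin spots of 9336. These spots, the 5% with the highest globin level in each slice, were chosen by globin alone, and Alas2 stood in them at 0.0407 to 0.769 per 10000 against 0.000601 to 0.0220 in the other spots. It was higher in the top spots of each of the 8 slices. Other defining red cell markers were near 0: Slc4a1 (band 3) had 19 UMIs, Klf1 29, Epb42 1, Rhag 2 and Kel 2 in all slices together. Bpgm, with 7297 UMIs, made up nearly all of the red cell list, whose summed level was 0.510 to 0.715 per 10000 and did not follow the globins. Endothelial markers summed to 2.11 to 3.18 per 10000 in the top globin spots and 1.39 to 2.70 in the others, higher in the top spots of 6 of the 8 slices. Of the 470 spots, 233 touched another of them, 177 lay in the outer 2 rings of spots of a piece and 84 were rich in Col1a1. Beside the shares over all spots, the slices went both ways. Outer-ring spots were 12 of 51 top spots and 270 of all 1017 at rest. At 2 dpi they were 23 of 87 and 335 of 1726. At 7 dpi they were 19 of 49 and 389 of 978, and 11 of 48 and 267 of 947. At 21 dpi they were 28 of 67 and 373 of 1343, and 19 of 42 and 290 of 827. In the deleter slices they were 26 of 46 and 295 of 911, and 39 of 80 and 336 of 1591. Globin in the outer 2 rings over inside stood at 1.16, 1.48, 1.17, 0.608, 1.12, 1.45, 1.33 and 2.54-fold, in the same slice order. Rich spots were 25 of 80 top spots and 274 of all 1591 in the deleter slice 2. In the 7 dpi slice 1 they were 2 of 49 and 112 of 978. Nothing is read from these counts. Embryonic globins were hardly seen: Hbb-bh1, Hbb-bh2 and Hba-x had no UMI in any slice. Hbb-y, a further embryonic gene, was detected in every slice, with 2 UMIs in the 21 dpi slice 2 up to 20 in the deleter slice 2.

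Across the spots of a slice the 4 globin genes went together, with a mean Pearson r over the 8 slices of 0.60 to 0.67 for the 6 pairs (single slices 0.18 to 0.90), on log2 of UMIs per 10000 plus 1. The other genes most like Hbb-bs among 10486 candidates were mt-Co3 (mean r 0.17) and mt-Nd3 (0.15), both mitochondrial. None of the 6 iron-handling genes followed Hbb-bs: the mean r was −0.02 with Hmox1, −0.05 with Ftl1, −0.08 with Fth1, 0.00 with Tfrc, and −0.01 with both Slc40a1 and Cp. Spots of a slice share a library and sparse counts pull r towards 0, so these are descriptions with no p.

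In the 2 dpi slice globin RNA and Hmox1 both held a higher share of the UMIs in shallow than in deep tissue, though not more UMIs. Their levels within the shallow tissue ran differently. The slice had a sharp border between deep and shallow tissue, and spots were sorted by whether the median depth of a spot and its neighbours reached 5000 UMIs. The 715 spots of high depth had a median of 15182 UMIs and 11.1% mitochondrial UMIs, and the 1011 spots of low depth a median of 1250 UMIs and 15.4%. The 4 globin genes stood at 1.62 per 10000 (95% interval 1.54 to 1.69) on the deep side and 7.13 (6.72 to 7.55) on the shallow side. As counts these were 1858 UMIs on the deep side and 1143 on the shallow side, with a globin UMI in 34.3% and 50.7% of spots. On the shallow side the 4 globin genes stood at 5.94 in the first row of spots at the border and 8.10 at 7 or more steps from it.

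Hmox1, the inducible haem oxygenase, had its highest level in the first shallow row. It stood at 0.757 (0.708 to 0.809) on the deep side and 1.94 (1.73 to 2.17) on the shallow side. As counts it had 870 UMIs on the deep side and 311 on the shallow side, in 52.3% and 16.3% of spots. At 2 dpi it stood at 0.298 per 10000 7 or more steps into the deep tissue, 2.74 in the last row of deep spots, 3.91 in the first row of shallow spots and 0.692 7 or more steps into the shallow tissue. Ftl1, the light chain of ferritin, ran 11.2, 34.5, 75.1 and 12.6 over the same 4 places, and Fth1, its iron-oxidising heavy chain, 81.2, 76.8, 101 and 60.1. Macrophage markers summed to 6.57, 14.0, 20.5 and 6.51 and neutrophil markers to 0.130, 5.39, 8.30 and 2.91 per 10000, so both lists also peaked in the first shallow row among these 4 places. Their part in the levels of Hmox1 and ferritin was not tested. Choroid plexus markers, which mark the tissue that makes cerebrospinal fluid, summed to 469 per 10000 deep in the deep tissue and 14.7 in the first shallow row. Only 26 spots of the slice were rich in Col1a1, fewer than the 92 deep and 88 shallow spots of the 2 border rows.

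**Figure D3:**
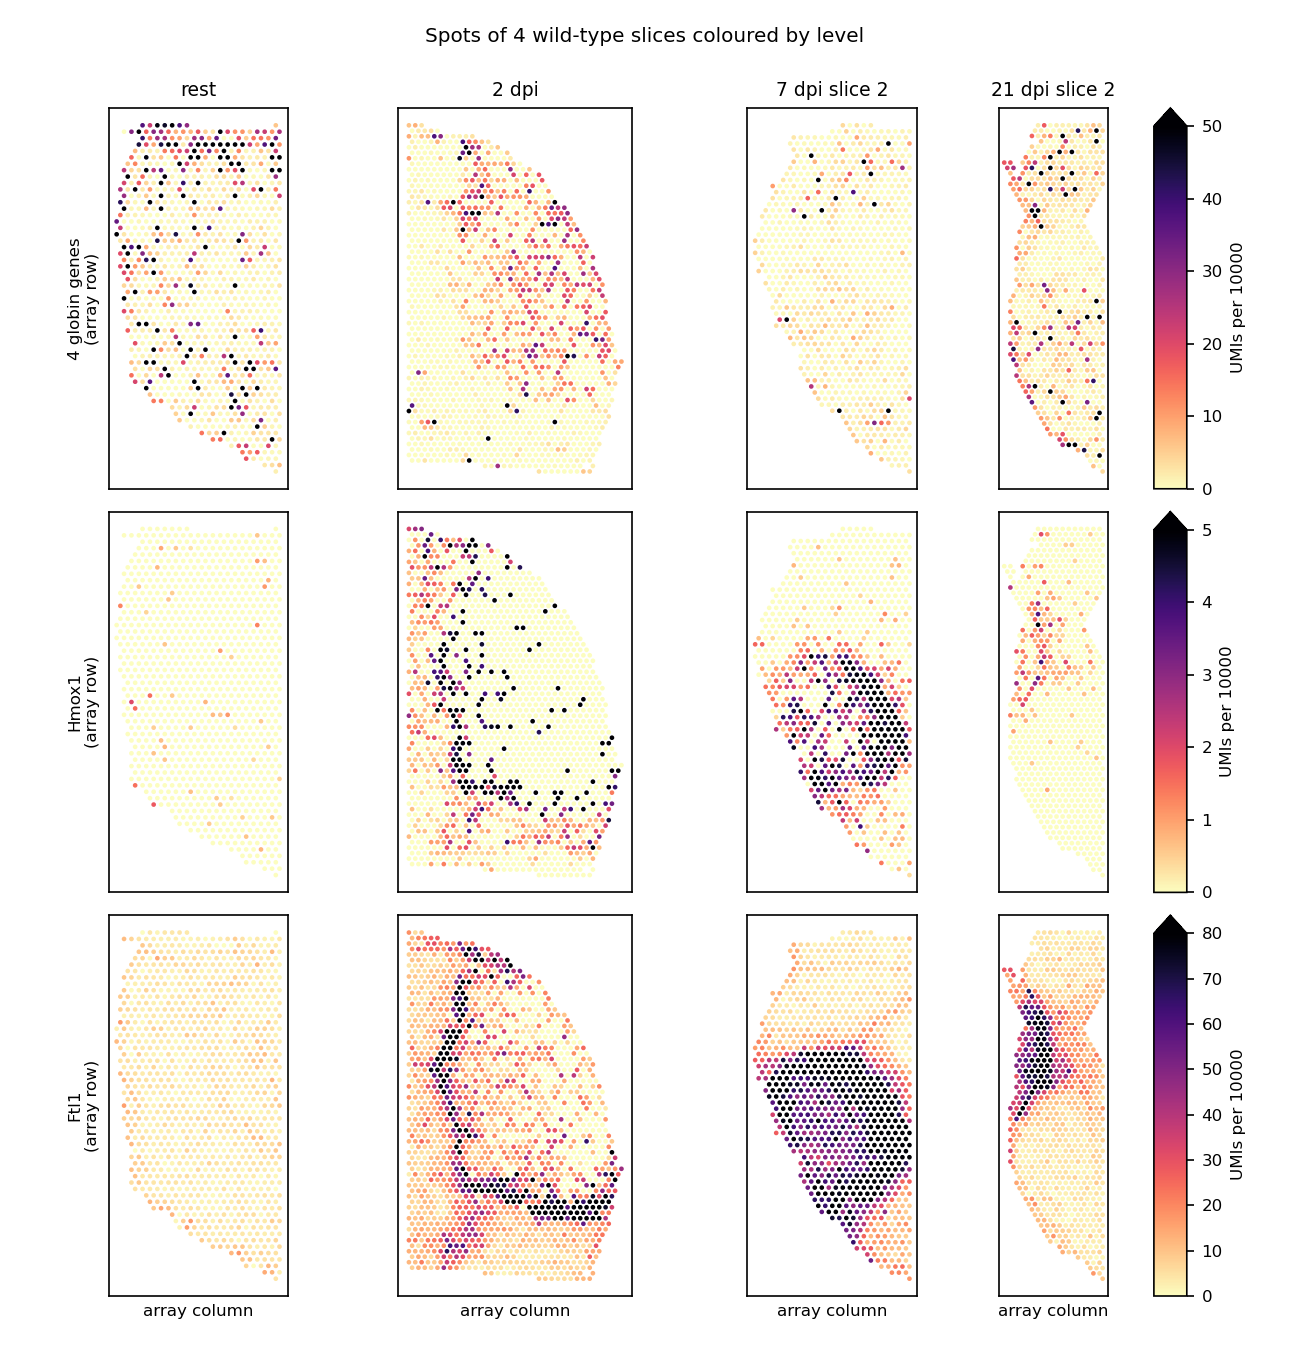
Spots of 4 wild-type slices at their array row and column, coloured by UMIs per 10000 of the 4 globin genes, Hmox1 and Ftl1, with each colour scale capped at the value on its bar. At 2 dpi globin has a higher level in the shallow tissue while Hmox1 and Ftl1 are highest near its border, at 7 dpi Hmox1 and Ftl1 are high over a broad patch, and at 21 dpi they are highest in a narrow zone.

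Hmox1 had the largest fitted difference between 7 and 21 dpi of the 10 genes, in free and in rich spots. Over whole slices it stood at 0.0312 (0.0232 to 0.0410) at rest, 0.902 (0.851 to 0.955) at 2 dpi, 0.812 and 1.30 at 7 dpi, 0.168 and 0.230 at 21 dpi, and 0.194 and 0.110 in the deleter slices. The 7 dpi slices lay above all 21 dpi slices. The intervals at rest and 2 dpi were far apart, but they cover counting error only, with 1 mouse each. In spots without Col1a1 UMIs, of which the 6 later slices held 228 to 651 each, it stood at 0.349 and 0.848 at 7 dpi against 0.0449 and 0.0424 at 21 dpi, a log2 difference of 3.76 (SE 0.46; edgeR's quasi-likelihood test with Benjamini-Hochberg adjustment, adjusted p = 0.00767). In Col1a1-rich spots, defined as at least 5 Col1a1 UMIs per 10000 and numbering 112 to 392 per slice, it stood at 3.07 and 1.86 against 0.523 and 0.638, a log2 difference of 2.07 (SE 0.24; adjusted p = 0.00130). In both kinds of spot the 7 dpi slices thus lay above the 21 dpi slices in Hmox1. This is a description, since these levels were known when the genes were listed. A spot covers a small region with several cells, so fewer cells of a type and less RNA per cell cannot be told apart here or below.

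Only a small share of all genes passed these tests of time. Of 14149 genes tested in Col1a1-free spots 3.14% passed an adjusted p of 0.05, and of 13289 in Col1a1-rich spots 4.39%. Of the 10 genes, 2 passed in the first, Hmox1 and Ftl1, both higher at 7 dpi, as were 3.01% of all genes tested there. In the second 3 passed, Hmox1 higher and Cp and Fth1 lower at 7 dpi, against 1.90% of all genes higher and 2.50% lower. Since the genes were listed with their levels in these slices known, the p-values are not independent evidence. This holds for every test of the 10 genes between 7 and 21 dpi, above and in the paragraphs below. Macrophage markers also differed between the times: in Col1a1-free spots the list summed to 13.2 and 19.5 per 10000 at 7 dpi against 5.15 and 3.62 at 21 dpi, with 7 of 9 markers passing, all higher at 7 dpi. In Col1a1-rich spots it summed to 70.7 and 88.3 against 114 and 102, with 1 of 9 higher and 2 lower. The part of these cells in the Hmox1 and ferritin differences was not tested.

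Ftl1 was higher at 7 than at 21 dpi in Col1a1-free spots and did not pass the test in rich spots. Over whole slices it stood at 3.70 (3.60 to 3.79) at rest, 17.1 (16.8 to 17.3) at 2 dpi, 20.5 and 40.1 at 7 dpi, 16.8 and 18.9 at 21 dpi, and 18.2 and 12.9 in the deleter slices. The slice at rest was lowest and the 7 dpi slice 2 highest, and both 7 dpi slices lay above the 4 slices at 21 dpi. In Col1a1-free spots it stood at 12.6 and 21.4 at 7 dpi against 5.79 and 4.73 at 21 dpi, a log2 difference of 1.71 (SE 0.25; edgeR adjusted p = 0.0144), which did not pass without the 21 dpi slice 1 (0.0542) or slice 2 (0.116). In Col1a1-rich spots the levels were close, 63.6 and 64.7 against 60.5 and 51.8, with a log2 difference of 0.22 (SE 0.14; adjusted p = 0.437).

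Fth1 was abundant in every slice, at 52.5 to 78.1 per 10000 over whole slices. It stood at 52.6 (52.2 to 52.9) at rest, 78.1 (77.6 to 78.6) at 2 dpi, 56.9 and 52.5 at 7 dpi, 64.6 and 61.8 at 21 dpi, and 61.3 and 55.0 in the deleter slices. The 21 dpi slices lay above the 7 dpi slices, and 2 dpi was highest. In Col1a1-rich spots it stood at 53.2 and 54.8 at 7 dpi and 83.9 and 86.8 at 21 dpi, a log2 difference of −0.63 (SE 0.13; edgeR adjusted p = 0.0208), which did not pass without the 21 dpi slice 2 (0.0750), at a Col1a1 minimum of 3 (0.0511) or in spots of at least 5000 UMIs (0.0778). In Col1a1-free spots it stood at 56.6 and 53.2 against 58.1 and 39.7 (adjusted p = 0.726). Among the genes most like Fth1 across spots were Trf (transferrin, mean r 0.65), Cldn11 (0.59), Mbp (0.58) and Mobp (0.58), all known from oligodendrocytes and myelin. Oligodendrocyte markers summed to 34.5 and 35.1 per 10000 in rich spots at 7 dpi and to 24.6 and 115 at 21 dpi, and their part in the level of Fth1 was not tested.

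The balance of ferritin chains shifted between the classes of spots. At rest 0.0703 Ftl1 UMIs were counted per Fth1 UMI. In Col1a1-rich spots the ratio was 1.20 and 1.18 at 7 dpi, 0.721 and 0.597 at 21 dpi and 0.635 and 0.648 in the deleter slices. In Col1a1-free spots it was 0.223 and 0.402, 0.0997 and 0.119, and 0.109 and 0.0923. The rich spots had the higher ratio in all 6 slices, in a contrast that was in view when the genes were listed, and the ratio compares spots with spots, not the amounts of the chains.

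Tfrc, the receptor that takes up transferrin-bound iron, went the other way. Over whole slices it stood at 0.773 (0.731 to 0.817) at rest, 0.505 (0.467 to 0.545) at 2 dpi, 0.583 and 0.448 at 7 dpi, 0.517 and 0.528 at 21 dpi, and 0.375 and 0.404 in the deleter slices. The slice at rest was highest and the deleter slices lowest. Its levels were 0.598 and 0.533 in Col1a1-free spots and 0.331 and 0.273 in Col1a1-rich spots at 7 dpi, and 0.631 and 0.702, and 0.219 and 0.326, at 21 dpi. Neither class differed between the times past the threshold (log2 differences −0.21, SE 0.13, edgeR adjusted p = 0.441, and 0.10, SE 0.25, adjusted p = 0.891). The genes most like Tfrc across spots were neuronal and weakly so: Syt1, Vamp2, Snap25, Atp1b1 and Scg5, each with a mean r of 0.19. Neuron markers summed to 29.8 to 62.9 per 10000 in Col1a1-free spots and 7.67 to 12.7 in rich spots of the 6 later slices, and their part in the level of Tfrc was not tested.

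The export genes were sparse. Slc40a1, which encodes ferroportin, the known iron exporter of animal cells, stood at 0.0587 (0.0475 to 0.0717) at rest, 0.0596 (0.0471 to 0.0744) at 2 dpi, 0.182 and 0.164 at 7 dpi, 0.145 and 0.175 at 21 dpi, and 0.114 and 0.115 in the deleter slices. Rest and 2 dpi, with 1 mouse each, had overlapping intervals, which cover counting error only. All later slices lay above both. Cp, the copper-containing ferroxidase ceruloplasmin, stood at 0.0550 (0.0442 to 0.0676) at rest, 0.263 (0.236 to 0.292) at 2 dpi, 0.156 and 0.184 at 7 dpi, 0.570 and 0.365 at 21 dpi, and 0.718 and 0.305 in the deleter slices. The 4 slices at 21 dpi, deleter included, lay above all others. In Col1a1-rich spots Cp stood at 0.260 and 0.348 at 7 dpi against 1.66 and 1.00 at 21 dpi, a log2 difference of −2.02 (SE 0.25; edgeR adjusted p = 0.00170). In Col1a1-free spots it stood at 0.106 and 0.0845 against 0.152 and 0.0969 (log2 difference −0.39, SE 0.38; adjusted p = 0.639). Slc40a1 passed in neither class (edgeR adjusted p = 0.376 in free and 0.772 in rich spots). The levels behind these tests were known when the genes were listed, so the p-values are not independent evidence. At rest Cp was 5.32-fold higher in the outer 2 rings of the piece than inside it, against 0.451 to 1.46-fold in the other 7 slices. The genes most like Cp were Dcn (mean r 0.39), Serping1 (0.39), Vim (0.37), H2-K1 (0.37) and Mgp (0.37), of which Dcn and Mgp are known from fibroblasts.

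Within each slice from 7 dpi on, the genes of haem breakdown, light-chain ferritin and export were higher in Col1a1-rich than in Col1a1-free spots, Tfrc was lower, and globins were mostly lower. This contrast is part of how the genes were listed, so fitted differences are given with standard errors and no p. Hmox1 was 8.80 and 2.19-fold higher at 7 dpi, 11.7 and 15.0-fold at 21 dpi, and 11.0 and 13.8-fold in the deleter slices, with a fitted log2 difference of 2.94 (SE 0.31) over both times in wild-type mice. Ftl1 was 5.04 and 3.03, 10.4 and 11.0, and 9.71 and 8.74-fold higher (fitted log2 difference 2.76, SE 0.12). Slc40a1 was 3.78 and 3.03, 4.81 and 5.21, and 4.14 and 5.09-fold higher (2.10, SE 0.15). These 3 genes were higher in the rich spots of all 6 slices.

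Cp was 2.46 and 4.12-fold higher at 7 dpi, 10.9 and 10.3-fold at 21 dpi and 8.78 and 16.9-fold in the deleter slices (fitted log2 difference 2.64, SE 0.19). Fth1 showed ratios of 0.939 and 1.03 at 7 dpi, where rich and free spots were alike within the slices' spread, and 1.44 and 2.19, and 1.67 and 1.25, later (0.47, SE 0.10). Tfrc showed ratios of 0.553 and 0.513, 0.347 and 0.464, and 0.418 and 0.533, lower in the rich spots of all 6 slices (−1.05, SE 0.12).

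The 4 globin genes together showed ratios of 0.626 and 0.601 at 7 dpi, 1.17 and 0.661 at 21 dpi, and 0.380 and 0.634 in the deleter slices, lower in the rich spots of 5 of 6 slices. The exception was the 21 dpi slice 1, and the fitted log2 differences ran from −0.46 (SE 0.15) for Hbb-bs to −0.13 (SE 0.19) for Hbb-bt in wild-type mice, of which the latter turned to 0.091 without the 21 dpi slice 2. In the deleter mice they ran from −1.16 to −1.11, and from −0.79 to −0.32 without the deleter slice 1. Of 14477 genes 62.3% passed the adjusted p of 0.05 in the wild-type contrast, 31.6% higher and 30.7% lower, and 7 of the 10 genes did, 5 higher and 2 lower (Tfrc and Hbb-bs), from which nothing is read. The shares passing were 42.8% at 7 dpi, 56.4% at 21 dpi and 55.3% in the deleter mice. Hbb-bs did not pass over both times without the slice in the model, at a Col1a1 minimum of 10, or without either 7 dpi slice or the 21 dpi slice 2. Between 7 and 21 dpi Hbb-bs passed in neither class, with log2 differences of −0.97 (SE 0.84; edgeR adjusted p = 0.594) in free and −1.44 (SE 0.53; adjusted p = 0.165) in rich spots; the first turned to 0.35 without the 21 dpi slice 2, and the second passed without the 21 dpi slice 1 (0.0249) or either deleter slice (0.0230 and 0.0237) and at a Col1a1 minimum of 10 (0.0218), and both passed without a low-count filter. Macrophage markers moved with the same contrast, summing to 3.62 to 19.5 per 10000 in free and 70.7 to 114 in rich spots, all 9 higher, and their part in these differences was not tested.

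**Figure D4:**
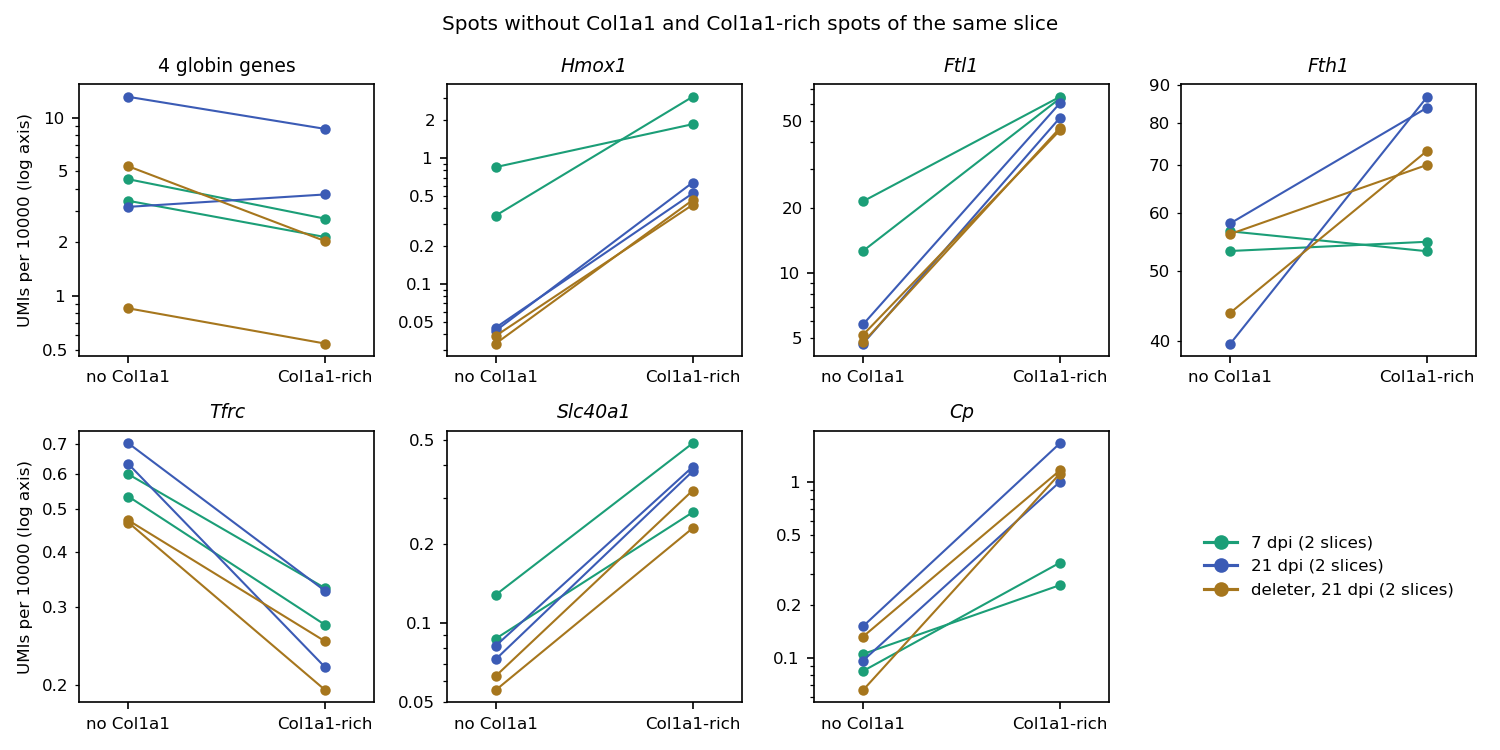
Level in spots without Col1a1 and in Col1a1-rich spots (UMIs per 10000, logarithmic axis), with a line for each of the 6 slices from 7 dpi on. Lines of Hmox1, Ftl1, Slc40a1 and Cp rise in all 6 slices, those of Tfrc fall in all 6, and those of the 4 globin genes fall in 5.

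The gap between rich and free spots was itself narrower at 7 dpi for some genes. The log2 gap at 7 dpi minus that at 21 dpi was −1.41 (SE 0.23; edgeR adjusted p = 0.0109) for Ftl1 and −1.66 (SE 0.38; adjusted p = 0.0487) for Cp, the 2 of the 10 genes that passed, against 3.06% of all 14477 genes, 2.71% with the lower log2 gap at 7 dpi. These gaps use levels that were in view when the genes were listed, so the p-values are not independent evidence. Between the times Ftl1 had passed in free spots and Cp in rich spots. Fth1 (−0.81, SE 0.20; adjusted p = 0.0659) and Hmox1 (−1.57, SE 0.64; 0.232) did not pass, nor did Slc40a1 (−0.52; 0.403), Tfrc (0.41; 0.414) or Hbb-bs (−0.66; 0.273). With 1 slice left out Hmox1 passed without the 7 dpi slice 1 (edgeR adjusted p = 0.0113), and Fth1 without the 21 dpi slice 1 (0.0399) or either deleter slice (0.0328 and 0.0420). The call for Cp was lost without any 1 of the 4 wild-type slices (adjusted p = 0.0820 to 0.272), and that for Ftl1 without the 7 dpi slice 2 (0.0656). Of the 9 macrophage markers 7 also had a narrower gap at 7 dpi, and their part was not tested.

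Distance from the nearest Col1a1-rich spot, counted in steps between neighbouring spots, showed how far each pattern reached. In the 7 dpi slice 2, Ftl1 stood at 64.7 in rich spots, 49.6, 49.9 and 49.8 at 1, 2 and 3 steps, 23.9 at 4 to 6 and 4.85 at 7 or more. In the 21 dpi slice 2 it stood at 51.8, 19.6, 9.78, 7.39, 5.82 and 4.11. In the 7 dpi slice 1 it stood at 63.6, 65.9, 44.9, 28.1, 17.1 and 8.50, highest at 1 step. The level over steps 1 to 3 was thus even in the 7 dpi slice 2 and not in slice 1, and at 21 dpi Ftl1 was lower at each step outward in all 4 slices, deleter included. Hmox1 in the 7 dpi slice 1 was highest 1 step outside the rich spots, at 3.85 against 3.07 within them, and stood at 2.16, 1.21, 0.424 and 0.186 farther out. In the 7 dpi slice 2 it stood at 1.86 in rich spots and at 1.82, 2.08, 2.27, 0.721 and 0.0423 outward, highest at 3 steps. At 21 dpi it stood at 0.523 and 0.638 in rich spots and 0.0604 and 0.0293 at 7 or more steps. Tfrc went from 0.195 to 0.331 in rich spots to 0.456 to 0.686 at 7 or more steps over the 6 slices. Cp reached 1.84 at 1 step in the deleter slice 1, above the 1.16 of its rich spots, and 1.32 against 1.66 in the 21 dpi slice 1. The globin genes followed no such order: in the 21 dpi slice 1 they stood at 3.71, 5.46, 9.61, 2.11, 5.97 and 2.77. These profiles are values over spots of single slices and were not tested.

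**Figure D5:**
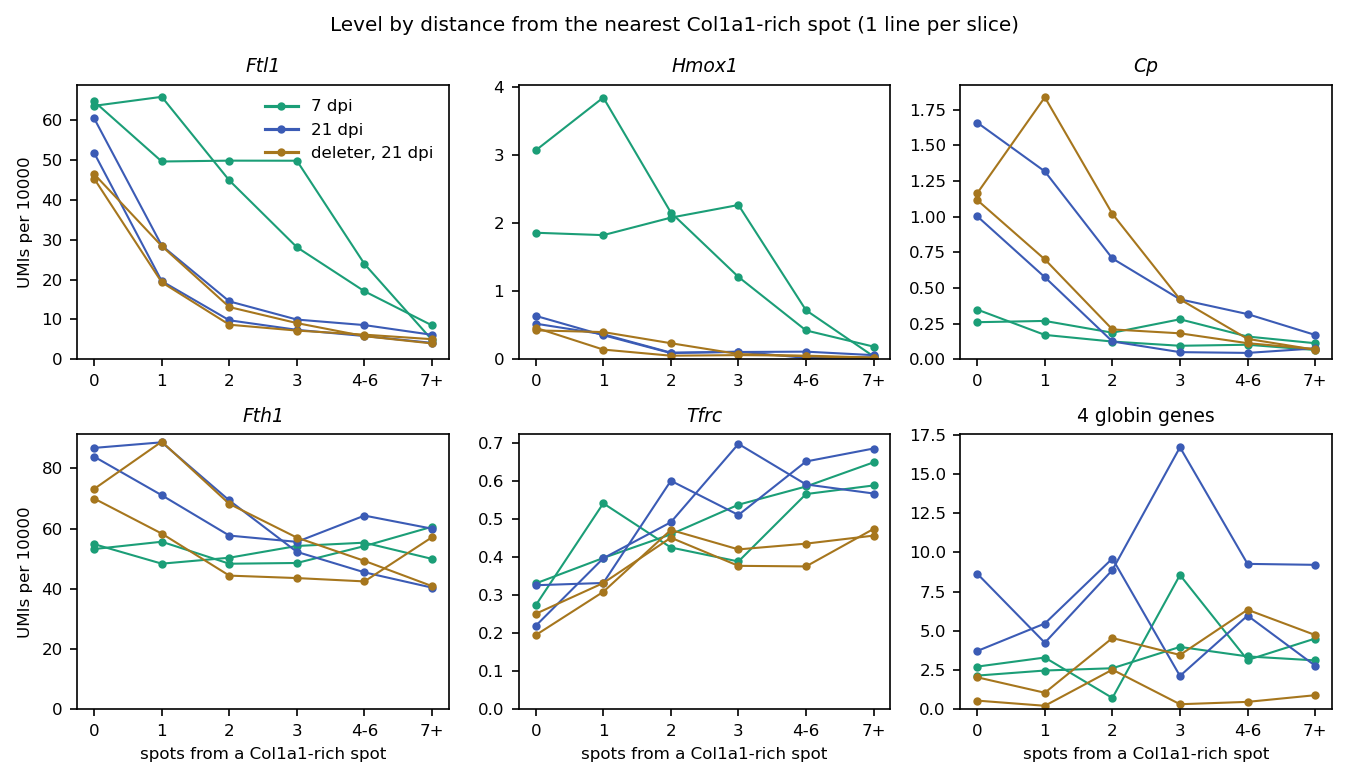
Level (UMIs per 10000, linear axis from 0) against steps from the nearest Col1a1-rich spot, with 0 for the rich spots themselves and a line for each of the 6 slices from 7 dpi on. Ftl1 at 7 dpi stays near 50 to 3 steps in slice 2 while the 21 dpi lines drop at the first step, Tfrc climbs outward, and the globin lines have no order.

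The levels on both sides of the limit that defined the rich spots are given as a description. The 101 spots just outside it, with 4 to under 5 Col1a1 UMIs per 10000, and the 75 just inside it, with 5 to under 6, held 36.8 and 37.1 Ftl1, 0.788 and 0.840 Hmox1, 0.428 and 0.408 Tfrc, 0.188 and 0.210 Slc40a1, 0.830 and 0.618 Cp, 77.0 and 71.1 Fth1 and 4.90 and 2.13 UMIs of the 4 globin genes per 10000.

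Other genes of these pathways were taken from lists by role, as counts past the adjusted p of 0.05 in edgeR's comparison of rich with free spots in wild-type mice. Over all 14477 genes the median log2 difference was 0.01, with 31.6% higher and 30.7% lower. List counts near these shares are not read as a result about the list. Of the 9 genes of haem synthesis, 3 were higher in rich spots and 3 lower, with a median of −0.08. Among the higher ones were Ppox (log2 difference 0.61) and Alas1 (0.44), the first enzyme of the path outside red cells, and the lower ones were Cpox (−0.50), Uros (−0.49) and Alad (−0.41). Of 10 tested genes of haem scavenging and breakdown, 8 were higher and 1 lower, with a median of 1.41. Hp, which encodes haptoglobin, the carrier of free haemoglobin, had a difference of 3.59 (SE 0.50), and Cd163, its receptor on macrophages, 2.09 (SE 0.52). Both were sparse, with at most 0.121 UMIs per 10000 for Hp and 0.0708 for Cd163 in rich spots of the 6 slices. In free spots of the wild-type slices at 7 and then 21 dpi, Hp had 2, 1, 7 and 1 UMIs and Cd163 10, 7, 6 and 0. Both were named for the size of these differences, so no p is given. The haem transporter gene Slc48a1 was the lower one (−0.26).

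Of the 25 genes of iron transport and storage, 14 were higher and 2 lower, with a median of 0.34, beside 31.6% higher and 30.7% lower of all genes. The largest differences were those of Steap4 (3.17, SE 0.30), Slc11a1 (2.95, SE 0.13) and Steap3 (2.84, SE 0.17). Steap4 and Steap3 encode metal reductases, and Slc11a1 a metal transporter of phagocyte vesicles. These genes were named for the size of their differences, so no p is given. Slc22a17, a receptor for lipocalin 2, was lower (−1.38, SE 0.09). Of 5 tested genes of iron regulation, Bmp6 (2.35), Hfe (2.17) and Aco1 (0.41) were higher and Fbxl5 (−0.44) lower. Aco1 encodes iron regulatory protein 1, which is known to bind the iron-responsive element. Its binding to the sites printed above was not tested. Hamp, the gene of the hormone hepcidin that removes ferroportin from the cell surface, had at most 0.00233 UMIs per 10000 in any slice. Of 10 Nrf2 targets and ferroptosis genes, 3 were higher (Aifm2 1.48, Slc7a11 1.13, Txnrd1 0.78) and 3 lower (Srxn1 −0.59, Acsl4 −0.41, Me1 −0.29), with a median of −0.01. The scavenging and transport lists share Hmox1, Ftl1, Fth1, Slc40a1, Cp and Tfrc with the genes described above, so those counts are in part the same values. Neutrophil markers (5 of 5 tested higher), microglia markers (4 of 5) and endothelial markers (5 of 6) moved with the same contrast, as did oligodendrocyte (6 of 6 lower) and neuron markers (5 of 5 lower).

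In the deleter slices the 6 iron-handling genes differed between rich and free spots in the same direction as in the wild-type slices at 21 dpi. Over whole slices no gene of 15907 passed the adjusted p of 0.05 between deleter and wild-type mice at 21 dpi in edgeR (0%), with 376 at an unadjusted p under 0.05 and 8 called by DESeq2. The log2 differences were −0.32 (SE 0.35) for Hmox1, −0.12 (SE 0.34) for Ftl1, −0.04 (SE 0.17) for Fth1, −0.34 (SE 0.14) for Tfrc, −0.40 (SE 0.15) for Slc40a1 and 0.20 (SE 0.41) for Cp, each with an edgeR adjusted p of 0.999902. Both deleter slices lay below both wild-type slices in Tfrc, Slc40a1 and Fth1, and the groups overlapped in Ftl1, Hmox1 and Cp. The globin genes were lower by −1.50 to −1.31 on the log2 scale, and their difference between these genotypes had been picked out earlier from these slices, so it has no test. For the 4 globin genes together the deleter slices, at 3.83 and 0.776, lay below the wild-type slices, at 4.44 and 8.98, and each pair differed widely within itself.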

How the data were processed

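Spatial transcriptomes of 8 brain slices on 4 Visium capture areas were analysed. The authors aligned reads to mm10 with Space Ranger 2.0.0 and deposited the tables of UMI counts, each spot against each gene, without normalization. Members and gene lists were chosen with earlier results of these data known. Tissue spots were joined into connected pieces, 2 per area, each taken as 1 slice of 1 mouse. Levels are UMIs per 10000 UMIs summed over all spots, spots with at least 5 Col1a1 UMIs per 10000 and spots with 0, of 9340 spots; 4 held no UMI. Spots are small regions, so no doublet caller was run. Exact Poisson intervals are at 95%.

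UMIs were summed per slice and class for the 6 slices at 7 and 21 dpi and tested with edgeR 4.0.16 in R 4.3.3: low counts were removed by filterByExpr, libraries were scaled by TMM, and p-values from the quasi-likelihood F test were adjusted by Benjamini-Hochberg over all genes tested, with a threshold of 0.05. The slice was a block for rich against free spots. Standard errors are the log2 fold change over the square root of F. The test was tried on simulated counts first. DESeq2 1.42.0 was an alternative; the others changed the normalization, the low-count filter, the Col1a1 limits, spot depth and the slices used. All groups had n = 2 slices, so p-values rest on few mice. The rule for named genes was: the 10 genes always, the 3 largest differences in each direction of each iron list, and the 5 genes most alike to each of 5 members by correlation over spots (at least 1 UMI in 5% of spots of every slice; Hmox1, which missed that limit, was compared with the genes that passed it). The border at 2 dpi, at 5000 UMIs, was drawn after the data were seen. Coordinates and untranslated regions come from GENCODE M21, promoters from RefSeq GRCm38.p6. Image scale factors were not used. Some genes that met the rule for named genes or stood in a marker list are not reported here.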

Additional observations from a re-analysis of the deposited data

Results flagged for a closer look

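For Ftl1 the log2 gap between Col1a1-rich and Col1a1-free spots differed between the times, by −1.41 at 7 dpi relative to 21 dpi (edgeR's quasi-likelihood test of the difference, adjusted p = 0.0109). Its gap was smaller in both 7 dpi slices than in both 21 dpi slices. For Cp the gap differed by −1.66 (edgeR adjusted p = 0.0487), also with both 7 dpi slices below both 21 dpi slices. Both are given here because this test passed, but it uses the levels in rich and free spots that were known when the genes were listed, so it is not independent evidence. The call for Cp was lost without any 1 of the 4 wild-type slices (adjusted p = 0.0820 to 0.272), and that for Ftl1 without the 7 dpi slice 2 (0.0656). Time, capture area and sex as read from Xist cannot be told apart here.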

How the results depend on the processing

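Each slice gave 2 sums, 1 per class of spots, so the slice was a block in the comparison of rich with free spots. With no replicate block the calls were 9109 genes against 9025 over both times, and 378 against 443 for the difference between the times. In the latter Cp lost its call (edgeR adjusted p = 0.126). With no block Hbb-bs also fell outside the threshold over both times and at 7 dpi, as did the 4 globin genes in the deleter mice. Nothing is read from these calls, because rich against free spots were in view when the genes were listed. Cp also lost its call for the difference between the times with free spots taken as under 1 Col1a1 UMI per 10000 (0.133) and in spots of at least 5000 UMIs (0.0526).

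Counts of called genes that moved by over 1.5 times were these. Without a low-count filter, 1475 genes passed for the difference between the times (443 in the main setting), 1702 in free spots (444) and 1317 in rich spots (584). With a Col1a1 minimum of 10, 867 passed for the difference between the times. DESeq2 called 8 genes between deleter and wild-type mice (0). With 1 slice left out, which leaves an arm with a lone slice assumed to vary like the other groups, the counts ran from 3041 to 6284 for rich against free spots at 7 dpi (6197; lowest without the 7 dpi slice 2), 128 to 597 for the difference between the times (lowest without the 7 dpi slice 2), 111 to 332 in free spots (lowest without the 21 dpi slice 2), 221 to 633 in rich spots (lowest without the 7 dpi slice 1) and 0 to 2 between genotypes. The cause was not tested.

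Some log2 differences changed sign. For Fth1 in rich against free spots at 7 dpi (0.06) they were −0.024 with library size alone and −0.0075 with a Col1a1 minimum of 3. With a minimum of 10, Hbb-bs at 21 dpi (−0.13) was 0.25 and Ftl1 in rich spots (0.22) −0.022, and with a minimum of 3 Slc40a1 in rich spots (−0.20) was 0.0048. With 1 slice left out, rich against free differences ran from −0.29 to 0.091 for Hbb-bt over both times, −0.0016 to 0.11 for Fth1 at 7 dpi and −0.57 to 0.34 for Hbb-bs at 21 dpi. Differences between 7 and 21 dpi ran in free spots from −0.66 to 0.0040 for Cp, −1.66 to 0.35 for Hbb-bs and −0.077 to 0.49 for Fth1, and in rich spots from −0.18 to 0.39 for Tfrc and −0.56 to 0.37 for Slc40a1. Between genotypes they ran from −0.12 to 0.048 for Fth1, −0.54 to 0.70 for Cp, −0.77 to 0.060 for Hmox1 and −0.39 to 0.12 for Ftl1. None of these had passed the threshold. For single members 831 alternatives were counted: 751 kept their direction and side of the threshold, 33 lost it, 27 gained it and 20 changed sign. Hbb-bt, Hba-a1 and Hba-a2 were counted only for rich against free spots over both times and in the deleter mice. No globin gene was counted between genotypes. Many of the alternatives compare rich with free spots, which were in view when the genes were listed. With 1 slice left out, rich against free differences at 7 dpi ran from −0.89 to −0.77 for Tfrc and from 1.39 to 2.11 for Cp.

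Weighting every spot equally raised the 4 globin genes together at 2 dpi to 5.09 per 10000 and moved 5 of 88 levels over 1.5 times, all globins at 2 dpi (up to 2.48 times); leaving out shallow spots or mitochondrial and globin UMIs moved none so far. Small numbers of UMIs limit Hmox1, Slc40a1 and Cp at rest, with 51, 96 and 90.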
